A study of Mus musculus with 19 samples.

Results

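In mouse brain with and without a mutation in the zinc finger gene Wiz, 10 cadherin genes were followed: Cdh2, Cdh4, Cdh6, Cdh7, Cdh8, Cdh10, Cdh11, Cdh12, Cdh13 and Cdh18. They were found by symbol among the 41388 Ensembl genes of the count files, and all 10 were present. All are classical cadherins except Cdh13, which is not one in the strict sense. RNA-seq counts were made from the cerebellum of adult males of 56 days (3 Wiz MommeD30/+ and 3 Wiz +/+), from the whole brains of male embryos of 13.5 days post coitum, E13.5 (3 and 3), and from those of female embryos of the same age (2 and 2). The question asked of the members was whether a lower Wiz dose changes their expression, and in particular whether Cdh11 falls together with a group of related genes, mostly pseudogenes, that the study named as lower in heterozygotes, called the cadherin 11-like genes. MommeD30 is an allele from a chemical (ENU) mutagenesis screen on an FVB/NJ strain, Line3, and the strain, per the study's methods, carries many copies of a GFP transgene driven by regulatory elements of the human α-globin locus on both homologues, so that Wiz +/+ animals have the transgene too. Heterozygotes keep 1 working copy of Wiz, and none of the animals was homozygous for the allele.

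Cadherins are calcium-dependent adhesion proteins whose extracellular repeats bind cadherins on the neighbouring cell, while the cytoplasmic tail of the classical members binds catenins that reach the actin cytoskeleton. Type I members (here Cdh2, N-cadherin, and Cdh4, R-cadherin) and type II members (Cdh6, Cdh7, Cdh8, Cdh10, Cdh11, Cdh12 and Cdh18) are expressed in differing combinations in the regions and neuron types of the brain, where they take part in sorting cells, guiding axons and building synapses. Cdh13 (T-cadherin) is held in the membrane by a glycosylphosphatidylinositol anchor and lacks the catenin-binding tail.

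Libraries held 16386029 to 50459755 counts on genes, the smallest being the second male Wiz +/+ brain. Values are given as CPM, counts per 1000000 counts of a library after TMM scaling over all 16 libraries, and p-values come from edgeR's quasi-likelihood test with Benjamini-Hochberg adjustment over all genes tested. The threshold asked for an adjusted p no higher than 0.05 together with a fold below 0.7 or above 1.3. Wiz itself was lower in each heterozygous group, at 62.0% to 71.2% of the wildtype mean of the same tissue and sex in single libraries. It passed the threshold in male and in female brain. In cerebellum, with a log2 fold change of -0.50, it passed the adjusted p but not the fold limit. As markers of the tissues, Gabra6 of granule cells had a mean of 979.7 CPM in wildtype cerebellum and 0.00627 CPM in wildtype male E13.5 brain. The proliferation marker Mki67 had 1.18 and 348.1 CPM in the same order. Some other markers of these lists were also near 0 in a tissue, such as Cbln3 (1746 and 1.35 CPM) and Hes5 (0.932 and 29.2 CPM). Others were well above 0 in both tissues. The granule cell marker Zic1 had 1160 and 285.4 CPM, and the progenitor marker Vim 219.4 and 655.2 CPM. In bulk tissue, fewer cells of a type and less RNA per cell cannot be told apart.

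Cdh11 (ENSMUSG00000031673, OB-cadherin, a type II cadherin known from mesenchyme and bone and also expressed in the brain) is a minus-strand gene of chromosome 8 at 102632095 to 102785642 (GRCm38). Of the 7 cadherin 11-like genes that could be matched to the count files, 6 lie on the same chromosome, between 19682449 and 20582771, which is 82.05 Mb from Cdh11, and the other, Gm10557, is a processed pseudogene on another chromosome. In the GENCODE M21 annotation 6 of the 7 are pseudogenes and Gm26804 is a lincRNA. Transcripts of the 6 pseudogenes aligned to Cdh11 (its transcript of 13 exons and 5647 bases) with 92.9% to 96.3% identity over 589 to 990 columns, whereas the next most similar member was Cdh6 in each, with 76.4% to 77.5% identity over 257 to 280 columns. Gm26804 had no such alignment, and it overlaps 6820431F20Rik and 2610005L07Rik on the opposite strand.

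How little separates the pseudogenes from Cdh11 can be read from 100 bases, the length of 1 sequencing read, in exon 4 of that Cdh11 transcript. Sequences are from GENCODE M21 transcripts. The Cdh11 stretch lies at chr8:102674007-102674106 on the minus strand (GRCm38). It is followed by the aligned stretches of the 5 pseudogenes on chromosome 8, with bases that differ from Cdh11 in capitals.
Cdh11: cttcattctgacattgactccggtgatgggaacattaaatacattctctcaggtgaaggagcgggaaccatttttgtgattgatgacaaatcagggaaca
2610005L07Rik, chr8:20405320-20405419, minus strand: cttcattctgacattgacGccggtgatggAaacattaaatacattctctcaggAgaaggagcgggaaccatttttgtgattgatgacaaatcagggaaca
6820431F20Rik, chr8:20278071-20278170, minus strand: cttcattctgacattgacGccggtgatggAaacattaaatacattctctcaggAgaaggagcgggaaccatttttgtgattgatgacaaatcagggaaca
Gm21092, chr8:20572739-20572838, plus strand: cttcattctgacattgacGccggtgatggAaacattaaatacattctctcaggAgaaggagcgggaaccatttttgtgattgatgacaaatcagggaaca
Gm21811, chr8:20141597-20141696, plus strand: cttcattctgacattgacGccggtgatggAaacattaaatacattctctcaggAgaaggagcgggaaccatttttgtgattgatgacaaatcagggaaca
Gm6483, chr8:19687604-19687703, plus strand: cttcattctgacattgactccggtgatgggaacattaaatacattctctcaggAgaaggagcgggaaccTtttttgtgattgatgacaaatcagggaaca
Of the 5 pseudogenes 4 were identical to each other in this stretch and differed from Cdh11 at 3 bases, and Gm6483 differed at 2. No 100-base stretch of any of the 9 annotated transcripts of these genes occurred without a difference in the Cdh11 transcript, where the longest exact run was 74 bases. In such a stretch a read separates Cdh11 from the pseudogenes by a few bases and 4 of the pseudogenes not at all from each other, so that values of single pseudogenes are uncertain. The counting mode, which decides what happened to reads with several matches, is not given in the sources used here.

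Cdh11 showed no decrease of the size seen for the cadherin 11-like genes. In male E13.5 brain it had 81.1, 69.8 and 77.9 CPM in the Wiz +/+ libraries and 77.9, 78.2 and 75.8 CPM in the Wiz MommeD30/+ libraries. In female brain the values were 82.8 and 87.9 CPM against 87.1 and 70.6 CPM, and in cerebellum 26.1, 25.7 and 25.1 CPM against 26.0, 26.6 and 26.1 CPM. The genotypes overlapped in all 3 tissues and sexes, and the lowest female value came from the second heterozygous brain alone.

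Wiz MommeD30/+ over Wiz +/+, Cdh11 had a log2 fold change of 0.01 for male brain (95% interval -0.10 to 0.12, adjusted p = 0.969, edgeR), -0.11 for female brain (-0.34 to 0.11, adjusted p = 0.892) and 0.04 for cerebellum (-0.06 to 0.14, adjusted p = 0.708). Averaged over the 3 strata, log2 CPM differed by -0.021, with p = 0.821 in an exact two-sided permutation test of the genotypes within strata (2400 arrangements, smallest possible p 0.000833). A decrease as deep as that of Wiz, with log2 fold changes of -0.63, -0.57 and -0.50 in the same order, lay outside each of the 3 Cdh11 intervals.

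The 7 cadherin 11-like genes had log2 fold changes of -0.67 to -0.97 in the male, -0.81 to -1.32 in the female and -0.39 to -1.49 in the cerebellum comparison. They were named by the study for being lower in these same libraries, so these values are a description and no independent evidence of a decrease. Summed over the 7 genes, male brains had 338.9 to 355.6 CPM in Wiz +/+ and 194.2 to 207.8 CPM in Wiz MommeD30/+. Female brains had 330.7 to 336.2 against 171.0 to 181.2 CPM, and cerebellum 314.8 to 339.1 against 209.8 to 219.9 CPM.

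Set beside each other within a library, 4.35 to 5.03 counts fell on the 7 genes for each count on Cdh11 in Wiz +/+ male brain and 2.56 to 2.66 in Wiz MommeD30/+. The ratio was 3.82 to 3.99 against 1.96 to 2.57 in female brain, and 12.1 to 13.2 against 7.89 to 8.46 in cerebellum. The ranges of the genotypes stood apart in each stratum because the sum moved, while Cdh11 stayed at 82.8% to 103.9% of its wildtype mean in single heterozygous libraries. Outside the second heterozygous female brain, that range was 99.4% to 103.9%.

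**Figure D1:**
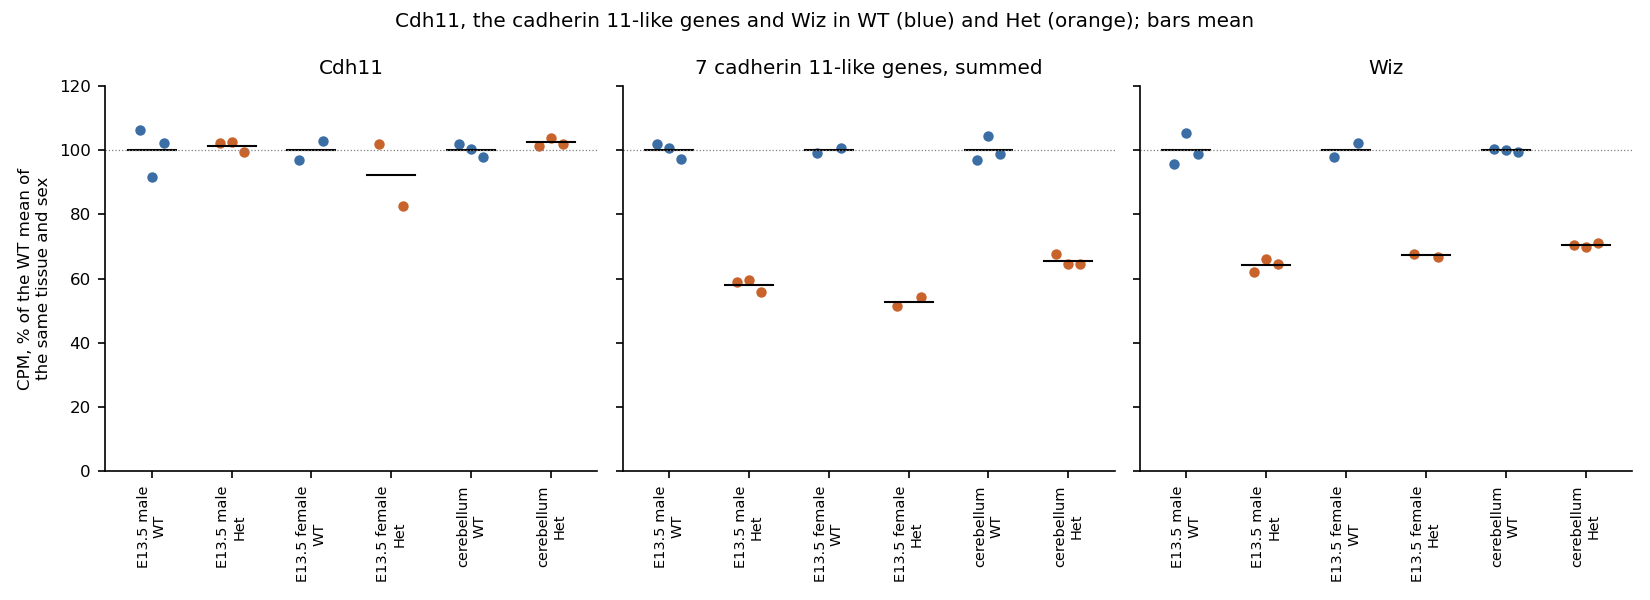
CPM of Cdh11, of the 7 cadherin 11-like genes summed and of Wiz, as a percentage of the mean of the Wiz +/+ libraries of the same tissue and sex; each point is 1 library and each bar a group mean. The heterozygous libraries of Cdh11 lie at 82.8% to 103.9%, whereas those of the summed genes lie at 51.3% to 67.6% and those of Wiz at 62.0% to 71.2%.

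Of the members together, none of the 10 passed the threshold in male brain (background 0.184% of 16848 genes tested), in female brain (0.111% of 17152) or with all 10 brains in 1 fit with sex as a covariate (0.346% of 17620). DESeq2's Wald test also called none in these 3 comparisons, and at an unadjusted p under 0.05 edgeR gave 2 members in males (8.45% of all genes tested), 2 in females (6.40%) and 4 over all brains (11.8%). The median log2 fold change of the members was -0.04 in males, -0.17 in females and -0.11 over all brains, against 0.00 over all genes tested in males and females and -0.00 over all brains. Over all brains 9 of the 10 values were negative, where 49.7% of all genes had positive ones. That of Cdh2 lay near 0, at -0.0174 to 0.00611 with 1 library left out.

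Of the type I members, Cdh2, which holds together the adherens junctions of neural progenitors, had 394.3, 404.6 and 401.1 CPM in Wiz +/+ male brains and 387.8, 387.7 and 409.6 CPM in heterozygous ones. Its log2 fold change over all E13.5 brains was -0.0048 (95% interval -0.06 to 0.05), the narrowest interval of the 10 members. Cdh4, first described in retina, had -0.03 (-0.11 to 0.05) in the same fit.

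The 4 members with an unadjusted p under 0.05 over all brains were Cdh8, Cdh10, Cdh12 and Cdh13, each with a negative log2 fold change, as had 6.85% of all genes at that limit. Cdh12 (Br-cadherin) had 8.07, 6.43 and 6.83 CPM in Wiz +/+ male brains against 5.92, 6.73 and 5.53 CPM, and 5.98 and 7.35 CPM in Wiz +/+ female brains against 4.71 and 5.17 CPM. The genotypes overlapped in males through the second heterozygous brain and did not overlap in females. Its log2 fold change over all brains was -0.32 (standard error 0.09), with 0.178 as its adjusted p by edgeR.

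Cdh10, a type II cadherin of brain, had 19.5, 17.3 and 17.5 CPM in Wiz +/+ male brains against 15.7, 16.7 and 17.4 CPM. In females it had 18.2 and 21.4 CPM against 15.8 and 16 CPM, again without overlap. Over all brains its log2 fold change was -0.21 ± 0.06 (SE), at an adjusted p of 0.198 by edgeR.

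Cdh8, a type II cadherin known from synapses of subsets of neurons, had 62.6, 56.9 and 57.7 CPM in Wiz +/+ male brains against 50.4, 53.7 and 57.0 CPM, and 57.0 and 60.4 CPM in Wiz +/+ female brains against 46.5 and 57.0 CPM. The values nearest each other were a wildtype and a heterozygous library of close to 57 CPM in either sex. Over all brains the value was -0.16 ± 0.05 (log2 fold change, SE), at an adjusted p of 0.263 by edgeR. Cdh13 had -0.21 ± 0.09 at an adjusted p of 0.389 by edgeR, with overlapping genotypes in both sexes.

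Complete separation of genotypes was common at these group sizes. In female brain 4 members (Cdh8, Cdh10, Cdh12 and Cdh18) were lower in both heterozygous libraries than in either wildtype one, where 35.6% of all 17956 expressed genes had genotypes that did not overlap and 17.7% were separated with the heterozygotes lower. In male brain no member was separated, against 12.3% of all genes, and in cerebellum 1 was, against 22.5% in either direction and 11.5% with the heterozygotes lower. Markers moved with genotype in the female brains as well: the summed level of 8 neural progenitor markers was 1691 to 1964 CPM in Wiz +/+ and 2074 to 2174 CPM in Wiz MommeD30/+, and all 8 had positive log2 fold changes. The erythroid list was separated too and ran the other way, at 1206 to 1254 against 1118 to 1140 CPM, with 6 of its 7 genes negative. Of endothelial markers 5 of 5 were negative, with sums of 222.9 to 230.5 against 199.2 to 225.7 CPM, which overlapped. None of these markers passed the threshold. Their part in the lower values of the 4 members was not tested.

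**Figure D2:**
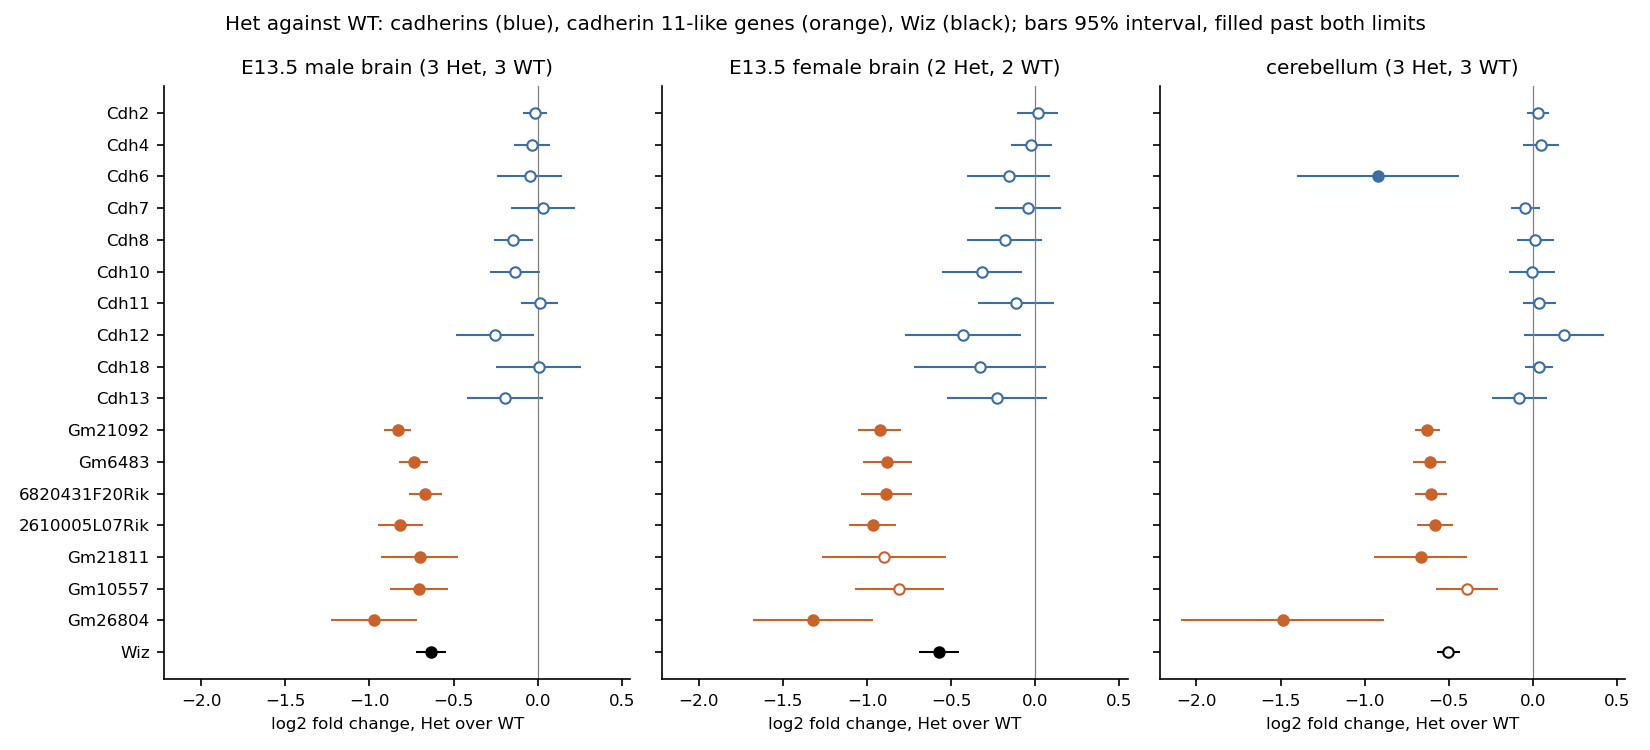
Log2 fold change of Wiz MommeD30/+ over Wiz +/+ with its 95% interval (horizontal bars) in male E13.5 brain, female E13.5 brain and cerebellum, for the 10 cadherins (blue), the 7 cadherin 11-like genes (orange) and Wiz (black); filled points passed both limits. Cdh6 in cerebellum, at -0.92, is the only filled blue point, and Cdh11 lies at 0.01, -0.11 and 0.04.

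In the adult cerebellum 1 of the 10 members passed the threshold, where 0.832% of 15979 genes did in either direction and 0.300% in the direction of a decrease. At an unadjusted p under 0.05 it was also 1 member, against 19.9% of all genes. The member was Cdh6 (K-cadherin, a type II cadherin known from kidney and from restricted regions of the developing brain). It had 1.73, 1.78 and 2.89 CPM in Wiz +/+ and 0.924, 1.3 and 1.14 CPM in Wiz MommeD30/+, so that all 3 heterozygous libraries lay below all 3 wildtype ones and the third wildtype library lay apart from the other two. The log2 fold change was -0.92 with a 95% interval of -1.40 to -0.44, at an adjusted p of 0.0265 by edgeR.

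The Cdh6 values rest on few reads, 48, 48 and 81 counts in Wiz +/+ and 24, 35 and 32 in Wiz MommeD30/+. Without the third wildtype library the log2 fold change was -0.64 and the adjusted p 0.171 by edgeR. Without the first or the third heterozygous library the adjusted p was 0.135 and 0.0607, and in 1 fit of all 16 libraries it was 0.0639. DESeq2 gave a log2 fold change of -0.92 and set its adjusted p to missing, as it does for genes of low mean count.

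In E13.5 brain the same gene was more abundant and its genotypes overlapped, with 17.3, 13.1 and 14.8 CPM in Wiz +/+ male brains and 15.5, 14.3 and 14.8 CPM in heterozygous ones. Whether the effect of genotype differed between cerebellum and male brain was tested as an interaction in the 12 male libraries, where 0.173% of 17337 genes passed the threshold. None of the members did by edgeR, with 2 at an unadjusted p under 0.05, where 9.72% of all genes were. Cdh6 had an interaction term of -0.88 (95% interval -1.43 to -0.32, adjusted p = 0.226), which passed by DESeq2 (adjusted p = 0.0474) and without the filter on low counts (adjusted p = 0.00124, edgeR). The other was Cdh12, with 0.44 (0.08 to 0.79, adjusted p = 0.380).

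Of the marker lists, that of red blood cells moved with genotype in cerebellum, where Hba-a1, Hba-a2, Hbb-bs and Alas2 passed the threshold, all higher in heterozygotes, out of 5 tested. Of all genes 0.532% were higher past the threshold. Their list of 7 genes summed to 160.1 to 249.2 CPM in Wiz +/+ and 290.5 to 528.2 CPM in Wiz MommeD30/+, with the embryonic globin gene Hbb-y at 0 in all 6 libraries. Among 7 tested progenitor markers Nes, Sox2 and Eomes passed the adjusted p but not the fold limit, all lower, with a list sum of 332.3 to 341.6 against 304.7 to 340.8 CPM. Of 8 markers of mesenchyme and meninges Col1a1 did so, also lower, with a list sum of 114.7 to 135.1 against 115.8 to 130.8 CPM. The choroid plexus list summed to 1861 to 2105 CPM in Wiz +/+ and 1027 to 2172 CPM in Wiz MommeD30/+, with none of its 5 genes past the threshold. Of all 15979 genes tested, 5.25% passed the adjusted p at any fold, 2.56% lower and 2.69% higher. Past the adjusted p alone were also 3 of 6 oligodendrocyte markers, all lower. So were 1 marker of endothelium and 1 of young neurons, both lower, while granule cells and astrocytes each had 1 marker lower and 1 higher. The young neuron list was separated by genotype too, with sums of 718.3 to 745.3 CPM in Wiz +/+ and 664.6 to 698.7 CPM in Wiz MommeD30/+. The part of these cells in the Cdh6 difference was not tested.

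The remaining 9 members had log2 fold changes of -0.08 (Cdh13) to 0.18 (Cdh12) in cerebellum and adjusted p-values of 0.398 or more by edgeR. The median of the 10 members was 0.02, against -0.00 over all genes. Cdh18 and Cdh7, the members with the highest adult over embryonic expression, had intervals of -0.04 to 0.12 and -0.13 to 0.04 on the log2 scale, narrow enough to leave out a change past either fold limit.

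The members lie on 5 chromosomes of GRCm38. Cdh6 (chr15:13028701-13173675), Cdh10 (chr15:18818947-19014236), Cdh12 (chr15:20449265-21589533) and Cdh18 (chr15:22549022-23474418) follow each other on chromosome 15, Cdh8 (chr8:99024471-99416471) and Cdh13 (chr8:118283733-119324921) share chromosome 8 with Cdh11, and Cdh2, Cdh4 and Cdh7 lie on chromosomes 18, 2 and 1. All 10 are annotated as protein coding, and counts cover their exons.

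**Figure D3:**
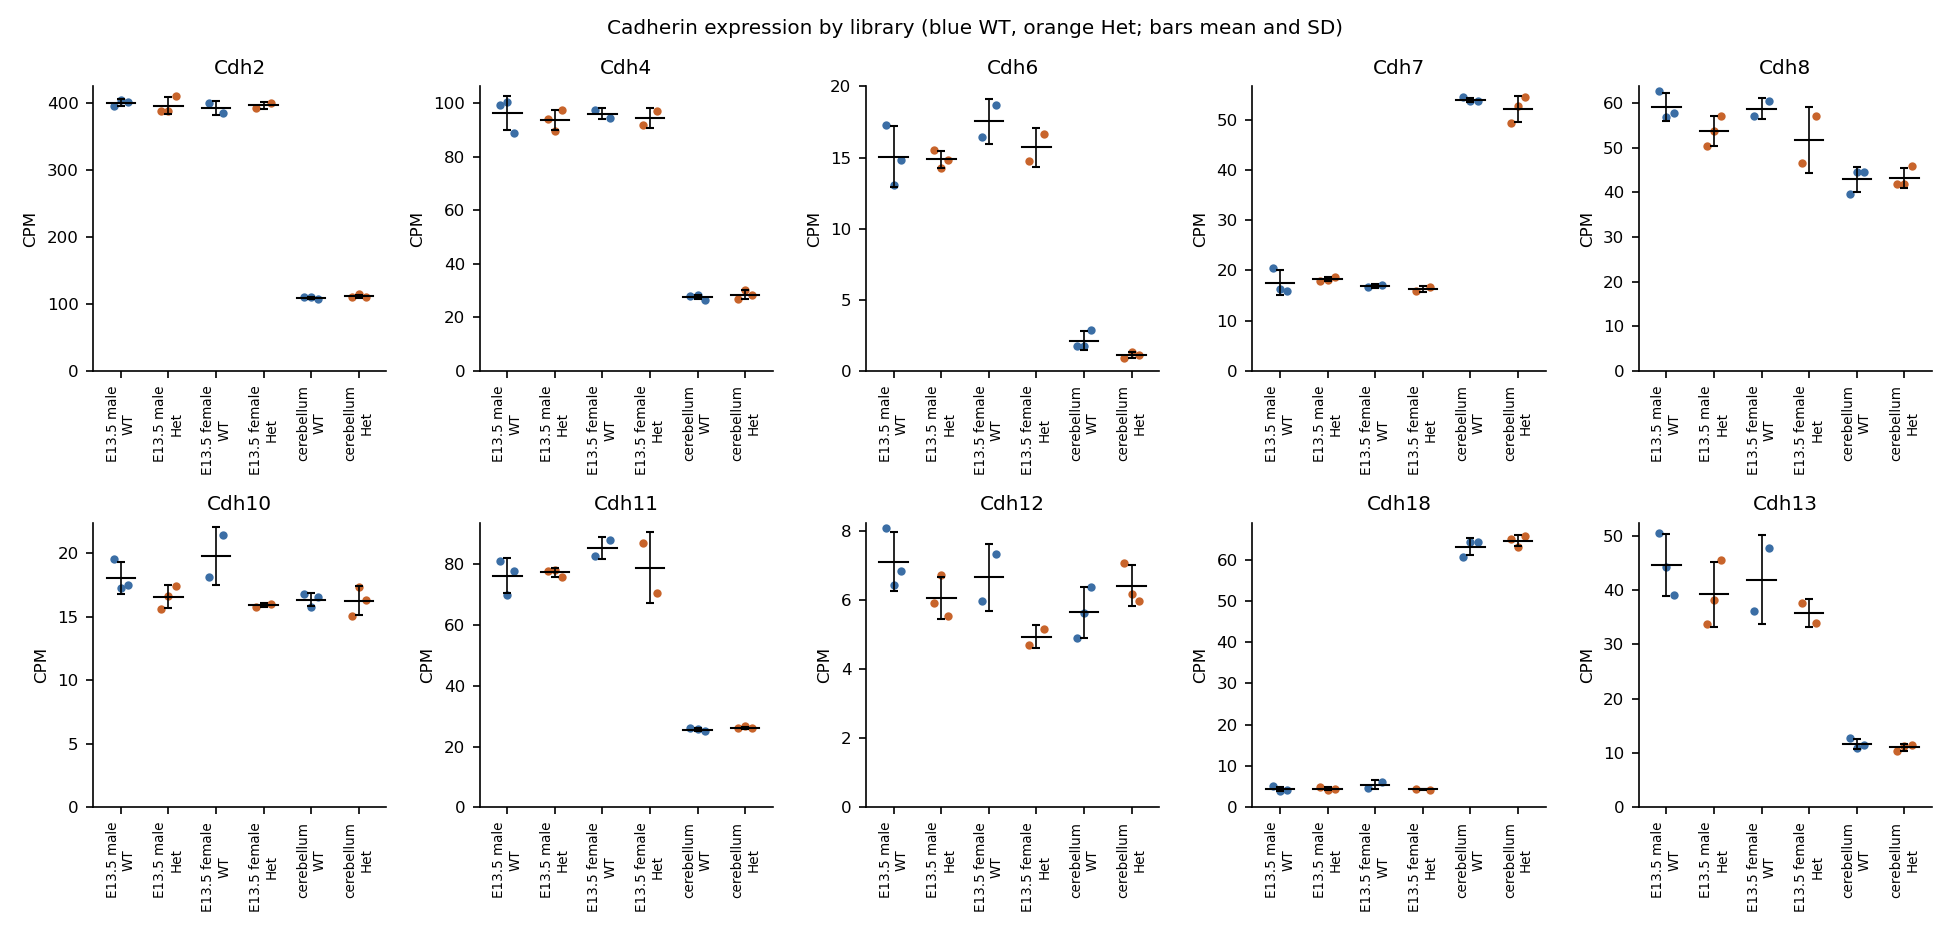
CPM of each of the 10 cadherins in each of the 16 libraries, by tissue, sex and genotype (blue Wiz +/+, orange Wiz MommeD30/+), with group means and SD as bars; every vertical axis starts at 0. Tissue separates the points of Cdh2, Cdh4, Cdh6, Cdh7, Cdh11, Cdh13 and Cdh18. Those of Cdh8 are separated narrowly, with at most 45.8 CPM in cerebellum and at least 46.5 CPM in E13.5 brain. Genotypes do not overlap for Cdh6 in cerebellum (0.924 to 1.3 against 1.73 to 2.89 CPM) and for Cdh8, Cdh10, Cdh12 and Cdh18 in female brain.

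The large differences of these genes were between the tissues. Adult cerebellum and E13.5 whole brain differ in age and in region at once, and these cannot be told apart. In wildtype males 5 members (Cdh2, Cdh4, Cdh6, Cdh11 and Cdh13) were lower in cerebellum and 2 (Cdh7 and Cdh18) were higher, 7 of 10 past the threshold. The background was 69.3% of 16840 genes in either direction, 32.9% lower and 36.4% higher, so the share of members past the threshold was close to that of all genes. The median log2 fold change of the members was -1.03, against -0.02 over all genes.

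The same 5 members were lower and the same 2 higher in heterozygous males, which are 6 other libraries, with a background of 68.8% of 16967 genes (33.0% lower and 35.8% higher). With scaling by total counts alone, the median of all genes moved to -0.23 in wildtype and -0.24 in heterozygous males. Cdh8 then passed the threshold in both genotypes and Cdh12 in wildtype, all lower, and no call of the 7 was lost.

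The largest fall in wildtype was that of Cdh6, from 15.1 ± 2.1 to 2.14 ± 0.66 CPM (SD, n = 3 each), or -2.84 ± 0.16 as log2 fold change and SE, at an adjusted p of 1.41e-10 by edgeR. In heterozygotes it was -3.71 (standard error 0.11). Cdh13 fell by 1.94 on the log2 scale, from 39.1 to 50.4 CPM in single wildtype brains to 10.9 to 12.7 CPM in cerebellum.

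Cdh2 fell from 394.3, 404.6 and 401.1 CPM in male E13.5 brain to 109.9, 110.5 and 107.3 CPM in cerebellum, or -1.87 ± 0.04 as log2 fold change and SE, at an adjusted p of 4.15e-16 by edgeR. Cdh4 fell by 1.80 on the same scale (standard error 0.05). Per kilobase of exon both type I members were among the 5 highest of the members followed here in wildtype cerebellum, other cadherins not being ranked.

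Cdh11 fell by 1.58 on the log2 scale in wildtype (SE 0.06, with 1.13e-12 as adjusted p by edgeR) and by 1.55 in heterozygotes (SE 0.04). The summed CPM of the cadherin 11-like genes in wildtype was 314.8 to 339.1 in cerebellum and 338.9 to 355.6 in male brain. Cdh11 is also known from mesenchyme and meninges. Markers of these tissues summed to 114.7 to 135.1 CPM in wildtype cerebellum and 568.5 to 645.8 CPM in male brain. Of the 8 markers 6 passed the threshold, all lower in cerebellum, as did 32.9% of all genes. Lower past the threshold were also 7 of 8 markers of neural progenitors, 3 of 4 of young neurons and 5 of 7 erythroid ones. Of 5 endothelial markers 3 were lower and 1 higher. The part of any of these tissues and cells in the Cdh11 difference was not tested.

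Cdh18, a type II cadherin of the nervous system, rose from 5.06, 3.94 and 4.33 CPM in wildtype male E13.5 brain to 60.7, 64.2 and 64.3 CPM in cerebellum. The log2 fold change was 3.78 with an SE of 0.07 and an adjusted p of 5.02e-16 by edgeR, the largest difference of the 10 in either direction. Cdh7, known from subsets of neurons and from neural crest, rose from 20.5, 16.3 and 16 CPM to 54.4, 53.7 and 53.7 CPM, or 1.59 ± 0.08 as log2 fold change and SE. All 5 granule cell markers and all 6 Purkinje cell markers were also past the threshold and higher in cerebellum, as were 36.4% of all genes. The same held for all 5 markers of astrocytes and Bergmann glia, all 6 of oligodendrocytes and 4 of 5 of choroid plexus. The part of any of these cells in the differences of Cdh18 and Cdh7 was not tested.

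Cdh8, Cdh10 and Cdh12 differed less between the tissues. Their log2 fold changes in wildtype were -0.47, -0.16 and -0.36, each past the adjusted p but not past the fold limit. In heterozygotes they were -0.31, -0.02 and 0.08, of which only that of Cdh8 passed the adjusted p.

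**Figure D4:**
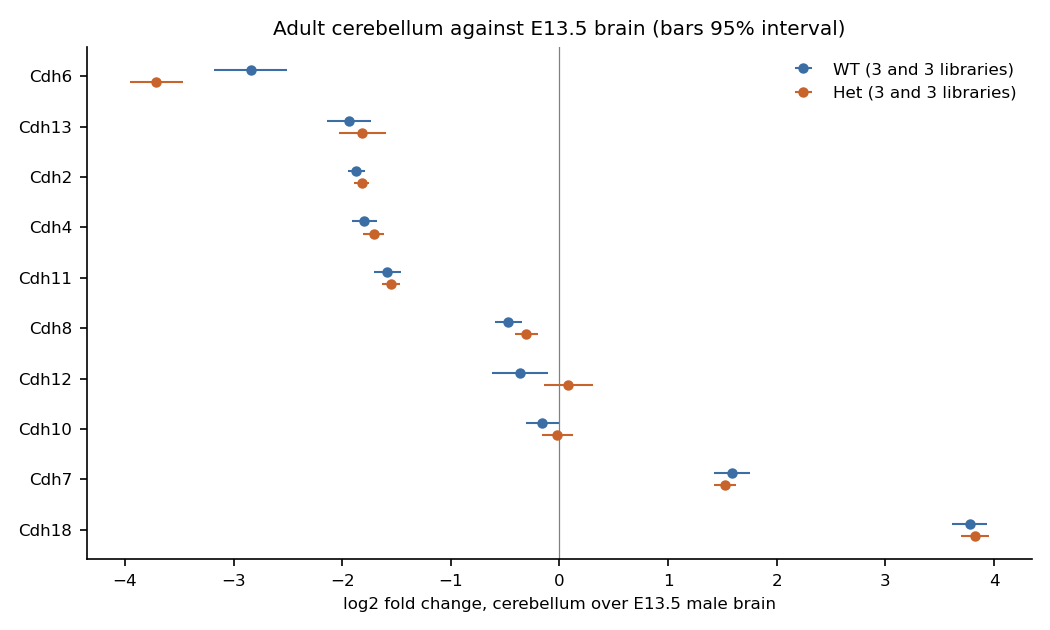
Log2 fold change of adult cerebellum over E13.5 male brain for the 10 cadherins, in Wiz +/+ (blue) and Wiz MommeD30/+ (orange) males, 3 libraries a tissue and genotype, with 95% intervals as bars. The 5 lower members lie between -1.55 and -3.71, and Cdh7 and Cdh18 lie between 1.53 and 3.83. The other 3 differ less, of which Cdh8 is lower in both genotypes (-0.47 in Wiz +/+).

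Between genes, levels were compared as CPM per kilobase of annotated exon. In wildtype male E13.5 brain Cdh2 was highest at 49.6 ± 0.6 CPM per kb (SD, n = 3) and made up 54.9% of the sum of the 10 members. It was followed by Cdh4 (13.3), Cdh11 (8.56), Cdh8 (7.63) and Cdh13 (3.97), and then by Cdh10, Cdh7, Cdh6, Cdh12 and Cdh18 at 0.976 to 1.80 CPM per kb. Cdh11 and Cdh8 overlapped between libraries, as did Cdh10, Cdh7 and Cdh6 with their neighbours in this order and Cdh12 with Cdh18, while the other neighbours did not.

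In wildtype cerebellum the order differed, with Cdh18 (13.9 ± 0.5 CPM per kb) and Cdh2 (13.5 ± 0.2) overlapping at the top, at 28.4% and 27.8% of the sum. Cdh8 (5.54) and Cdh7 (5.38) overlapped next, followed without overlap by Cdh4 (3.80), Cdh11 (2.88) and Cdh10 (1.63). Cdh13 (1.04) and Cdh12 (0.896) overlapped, and Cdh6 was lowest at 0.237 CPM per kb. Cdh18 thus had the lowest mean of the 10 in wildtype male E13.5 brain, overlapping Cdh12, and the highest in wildtype cerebellum. In the other E13.5 groups Cdh12 had the lowest mean and Cdh18 the next.

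The sum of the members was 88.7 to 92.5 CPM per kb in wildtype male E13.5 brain and 48.0 to 49.3 CPM per kb in wildtype cerebellum. Heterozygotes had 86.4 to 91.2 and 48.5 to 49.9 CPM per kb. The order of the 4 highest members was the same in both genotypes within each tissue, in female brains too.

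**Figure D5:**
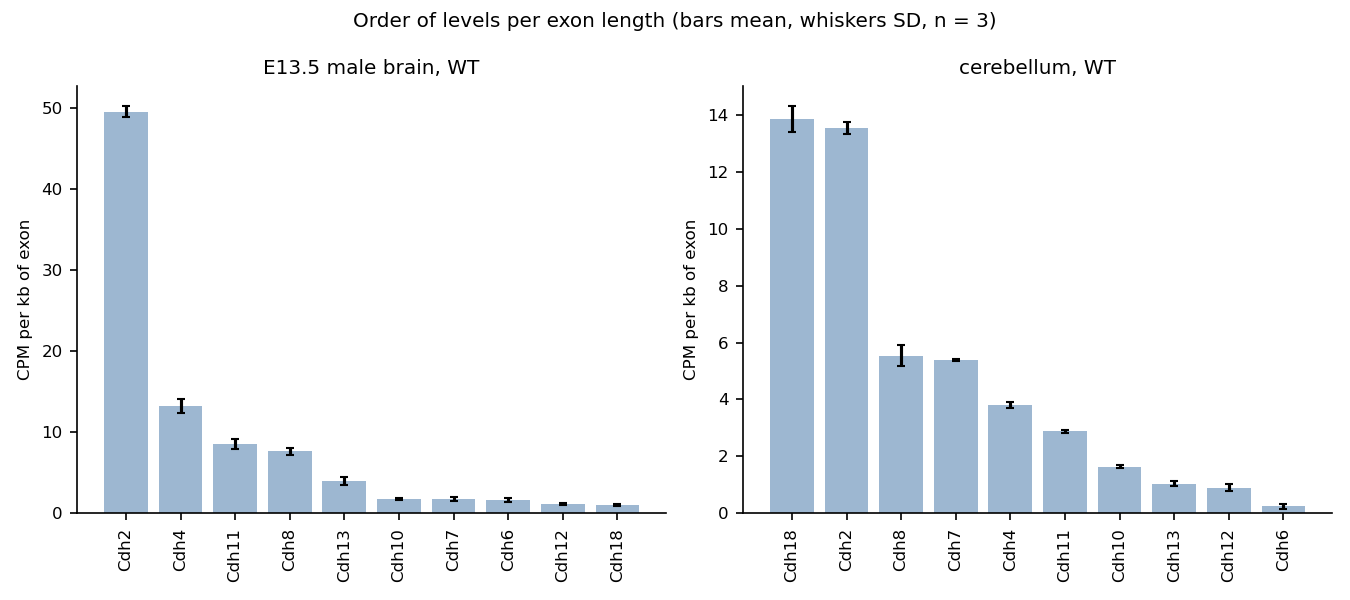
CPM per kb of annotated exon of the 10 cadherins in wildtype male E13.5 brain and wildtype cerebellum, in descending order, with means as bars and SD as whiskers (n = 3 each); the vertical scales of the panels differ. Cdh2 leads in E13.5 brain at 49.6, and Cdh18 and Cdh2 lead in cerebellum at 13.9 and 13.5.

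The genes whose log2 CPM was most like that of Cdh11 over the 16 libraries were Nid1 (Pearson's r = 0.9975), Lama4 (0.9973), Scn9a (0.9966), Nkx2-4 (0.9964) and Fgf13 (0.9961), among 17955 genes compared. Nid1 and Lama4 encode basement membrane proteins and Scn9a a sodium channel. Nkx2-4 had a mean of only 1.80 CPM in E13.5 brain and 0 CPM in cerebellum, so its r rests on presence against absence. The libraries fall into 2 tissues, and 4675 genes reached an r of 0.95. Of the other members Cdh2 (0.9923), Cdh4 (0.9904), Cdh13 (0.9808) and Cdh6 (0.9740) did so, and Cdh18 (-0.9855) and Cdh7 (-0.9873) ran opposite.

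Partners of the cadherins were also examined. Of 11 genes for catenins and other plaque proteins, none passed the threshold between genotypes in any comparison by edgeR, and at an unadjusted p under 0.05 there were 2 in cerebellum (19.9% of all genes), 1 over all E13.5 brains (11.8%) and 1 in the interaction (9.72%). Between wildtype tissues 6 passed the threshold as lower in cerebellum and 3 as higher, where 32.9% and 36.4% of all genes did. The largest differences were those of Ctnna3 (log2 fold change 3.15), a catenin of the alpha family, Pkp4 (2.37), Arvcf (-1.95), both relatives of p120 catenin, and Jup (1.88), which encodes plakoglobin.

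Of 9 classical cadherins that are not among the members, 4 were lower and 5 higher in wildtype cerebellum than in E13.5 brain, past the threshold. Of all genes 32.9% were lower and 36.4% higher. Cdh15 (M-cadherin, known from muscle and from cerebellar granule cells) had the largest difference, from 0.230 ± 0.140 to 56.2 ± 3.7 CPM (SD, n = 3). Cdh24 had a log2 fold change of -3.14, Cdh9 of -2.52 and Cdh19 of 2.16. Between genotypes none of the 9 passed the threshold by edgeR, with 2 at an unadjusted p under 0.05 in female brain (6.40% of all genes), 2 over all E13.5 brains (11.8%) and 2 in cerebellum (19.9%). Cdh15 passed the adjusted p in cerebellum with 0.20 as log2 fold change and 0.0161 as adjusted p by edgeR, higher in heterozygotes. Of all genes tested there, 5.25% passed the adjusted p at any fold, 2.69% of them all being higher.

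Of 4 nectins, adhesion proteins that act beside cadherins, Nectin3 was likewise past the adjusted p alone in cerebellum (0.27, adjusted p = 0.00725, edgeR). The share of all genes past the adjusted p there was 5.25%. Between wildtype tissues 2 nectins were lower and 1 higher past the threshold, against 32.9% and 36.4% of all genes. Of 5 proteases that process cadherins, none passed the adjusted p between genotypes. Pcsk6 (3.80), Pcsk5 (-1.81), Furin (1.29) and Adam10 (-0.53) passed the threshold between wildtype tissues, as did 69.3% of all genes.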

How the data were processed

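PolyA RNA of 16 samples was sequenced. Per the submitters' processing notes and the study's methods, the authors mapped single-end reads to mm10 with TopHat2 2.0.11, and the deposited values are raw counts per Ensembl gene from HTSeq 0.6.1, without normalization. The counting mode and strand setting are not given in the sources used here. Symbols, positions and exon lengths came from GENCODE M21 (GRCm38, exons merged per gene for lengths), which held 40254 of the 41388 identifiers; the others took at most 0.17% of any library's counts. Of the 9 cadherin 11-like genes 2, AC152164.1 and Gm21769, were not matched.

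Each comparison was fitted on its own libraries with edgeR 4.0.16 in R 4.3.3 (TMM scaling, filterByExpr with a minimum count of 10, quasi-likelihood test), the all-brain fit with sex as a covariate. A standard error is the log2 fold change divided by the root of F. DESeq2 1.42.0, other scalings, other filters, a replicate block and left-out libraries were alternatives. The fits and the permutation test (prior count of 2) were tested on simulated data. Transcripts were aligned with BLAST 2.17.0, and figures drawn with matplotlib 3.10.9.

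Named were all members, Wiz, the cadherin 11-like genes, listed genes past the threshold between genotypes, up to 4 per list between tissues, and the 5 genes most like Cdh11. Genes past the adjusted p alone and single markers were added after their values were seen. Members and lists were chosen with earlier results of these data known. The study calls its samples biological replicates; their counts differed by more than sampling gives (chi-square per degree of freedom 2.11 to 11.2). With 2 brains a genotype, female values are the least certain. The 3 ChIP-seq samples were not analysed here.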

Additional observations from a re-analysis of the deposited data

How the results depend on the processing

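Each alternative was run on every comparison of the members and on the Cdh11 permutation test. The count of members past the threshold stayed at 0 in male brain, female brain and all E13.5 brains and at 7 in both tissue comparisons (7 to 7) with any 1 library left out. In cerebellum the count of 1 (Cdh6) became 0 by DESeq2, where the adjusted p is missing, 0 with a mean count of at least 50, which leaves Cdh6 untested, and 0 in 1 fit of all 16 libraries, and it was 0 to 1 with a library left out. For the genotype by tissue term it became 1 by DESeq2 and 1 without the filter on low counts, and was 0 with any library left out. The mean Cdh11 difference of -0.0213 became 0.0289 without the female brains, where the second heterozygous brain is the low one, and ran from -0.0715 to 0.0289 with a library left out (p 0.356 to 0.96, exact permutation test).

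Correlations of same-numbered libraries, after group means were taken off, ran from -0.13 to 0.0203. With so few libraries a group, such values cannot exclude that the numbers pair animals. With the replicate number as a block, the permutation test gave -0.0213 (p = 0.891), Cdh6 in cerebellum -0.917 (adjusted p = 0.0142, edgeR), and no call on a member changed. Over all genes the block gave 3 calls in female brain in place of 19 and 18 for the interaction in place of 30.

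Small values turned sign: Cdh18 in male brain to -0.00422 and Cdh7 over all E13.5 brains to -0.00927 in 1 fit of all libraries, and Cdh12 between heterozygous tissues to -0.14 with total counts. With a library left out, values on both sides of 0 were found in male brain for Cdh6 (-0.117 to 0.0764), Cdh7 (-0.0499 to 0.178), Cdh11 (-0.0392 to 0.0597) and Cdh18 (-0.0668 to 0.13), in female brain for Cdh2 (-0.00934 to 0.0397), Cdh4 (-0.0632 to 0.0159) and Cdh11 (-0.275 to 0.0316), over all brains for Cdh2 (-0.0174 to 0.00611), Cdh7 (-0.0402 to 0.0674) and Cdh11 (-0.0784 to 0.0199), in cerebellum for Cdh8 (-0.0423 to 0.045) and Cdh10 (-0.0514 to 0.0443), between heterozygous tissues for Cdh10 (-0.0697 to 0.0405), and for the interaction for Cdh7 (-0.235 to 0.0158), Cdh11 (-0.0328 to 0.0837), Cdh18 (-0.0992 to 0.119) and Cdh13 (-0.0143 to 0.228). None of these values over all libraries was past the threshold, and the cause was not tested.

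Counts over all genes moved by more than 1.5 times in male brain (31) without the filter (175), in female brain (19) by DESeq2 (32) and in 1 fit of all libraries (54), in cerebellum (133) by DESeq2 (75), without the filter (211), without the fold limit (839) and in 1 fit (66), over all brains (61) without the filter (101) and in 1 fit (93), and for the interaction (30) by DESeq2 (61), without the filter (174) and in 1 fit (17). With a library left out they were 20 (without the first wildtype) to 117 (without the third heterozygote) in male brain, 0 (either heterozygote) to 40 and 261 (second and first wildtype) in female brain, 70 (without the third wildtype), 83 (without the first heterozygote) and up to 153 in cerebellum, and 12 to 73 for the interaction. Depth limits the members with fewest counts, Cdh6 and Cdh12 in cerebellum and Cdh12 and Cdh18 in E13.5 brain.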
